A study of Mus musculus with 43 samples.

Results

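Polypoid dysplasia of mice fed 8 mg folic acid (FA) per kg chow (8P) was compared with non-dysplastic colonic epithelium of mice fed chow without FA (0ND). The comparison uses 13 of the 43 DREAM libraries of the series, chosen by the diet, tissue and cohort in the sample labels. The 7 libraries of 8P came from 6 mice, because mouse 1856 gave 2 lesions, and the 6 libraries of 0ND came from 6 other mice. All were female Swiss Webster mice that received the carcinogen azoxymethane (AOM) and 4 cycles of dextran sulfate sodium (DSS), which causes colitis. Per the paper, the diets began after the first DSS treatment and were fed for 16 weeks. All mice were killed at 27 weeks of age. Cells were laser-microdissected from paraffin-embedded colon. For methylation the paper used non-dysplastic samples of 2 kinds, epithelial cells alone and epithelium with the lamina propria. The sample titles, which read non-neoplastic cells, do not tell which kind 0ND is, and it is called epithelium here. The groups differ in diet and in tissue together, so that the effects of both cannot be told apart in this comparison.

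In DNA methylation, a methyl group is attached to the cytosine of a CpG, and the folate cycle provides one-carbon units for the methyl donor of this reaction. In normal mammalian tissue most isolated CpGs are methylated, whereas dense clusters of CpGs (CpG islands) are mostly free of methylation, and in tumors both patterns are commonly altered. DREAM reads the CpG inside the 6-base sequence CCCGGG: SmaI cuts only the unmethylated sequence, XmaI then cuts the methylated copies that remain, and the end of each read shows which enzyme made the cut. The methylation level of a site is the percentage of its reads that came from methylated copies, here after the authors' adjustment to spiked standards unless raw percentages are named. Differences in level are given in percentage points, as 8P minus 0ND.

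Reads on CCCGGG sites numbered from 4892730 to 13960168 per library in 8P (median 9962939) and from 2863002 to 5873580 in 0ND. Between 47798 and 54855 sites per library had at least 20 reads in 8P, and between 17754 and 24475 in 0ND. At least 20 reads in every library were found at 22552 sites in 8P, at 13398 in 0ND and at 13195 in both groups together. These 13195 sites, 7.61% of the 173449 sites listed on mouse build mm9, were tested. The median of the lowest read number of any library was 72 over the tested sites, so that for most of them the spread between libraries holds counting error besides the spread between mice.

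Libraries of polyps and of 0ND epithelium also differed in DNA that did not come from mice. Each library carried spiked standards with defined methylation of 0, 25, 50 or 100%, read at 18 CCCGGG sites. At 7 of the 18 the groups differed in adjusted level (two-sided exact permutation test, Benjamini-Hochberg (BH) adjusted p under 0.05 over the 18), 5 of them lower and 2 higher in 8P, and the raw percentages gave 7 as well. At 5 of the 18 the libraries of 8P and 0ND did not overlap. Standard Sla341_2 was at 41.6% ± 0.932 (SD, n = 7) in 8P and at 26.0% ± 2.74 (SD, n = 6) in 0ND, a difference of 15.6 points (exact permutation p = 0.000583, adjusted 0.0021). Standard T353_1 was at 43.6% ± 2.03 (SD, n = 7) in 8P and at 51.8% ± 1.74 (SD, n = 6) in 0ND (exact permutation p = 0.000583, adjusted 0.0021), and Sla374_1 at 98.5% ± 0.221 against 90.9% ± 1.67 (the same p-values). An exact permutation p of 0.000583 is the smallest that the 1716 assignments of 13 libraries can give.

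**Figure D1:**
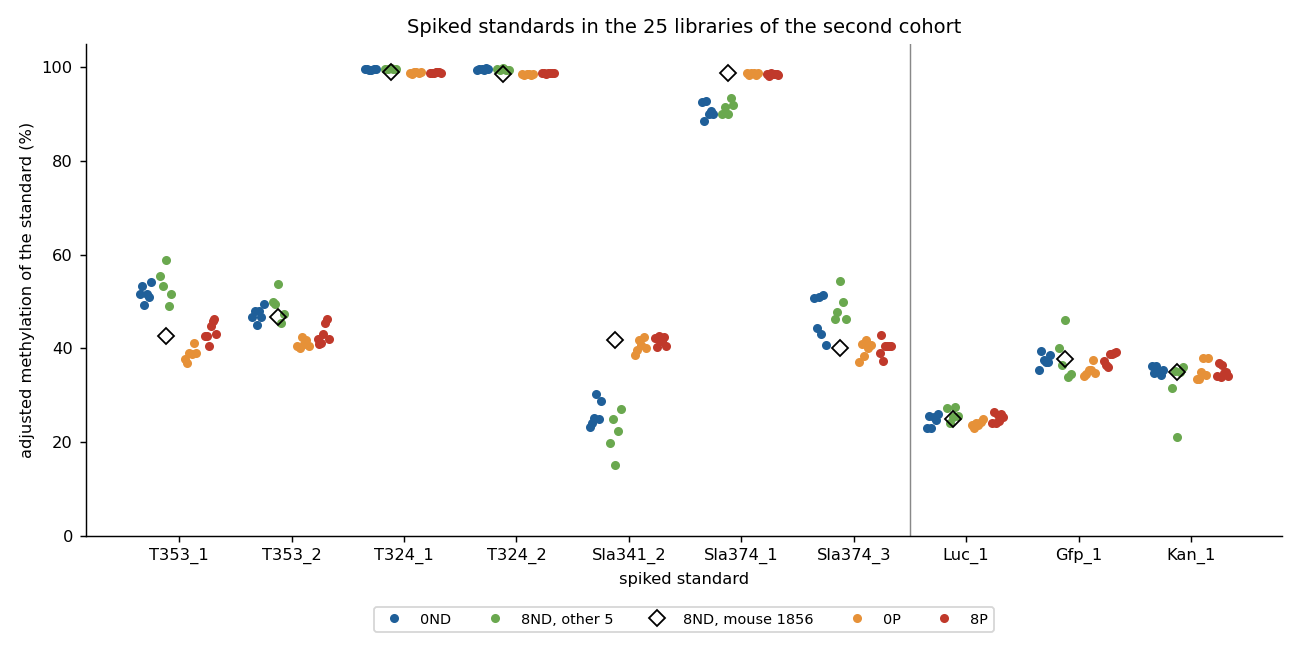
Adjusted methylation (y axis, %) of 10 of the 18 spiked standards (x axis) in the 25 libraries of the second cohort, 1 point per library and colored by group. Left of the line are the 7 standards at which 8P and 0ND differed and right of it 3 at which they did not pass the test. At Sla341_2 polyps of both diets lie together, and the open diamond, the 8ND library of mouse 1856, lies at their level with 41.8%. At T353_1 0P (36.8 to 41.2%) lies mostly below 8P (40.4 to 46.2%).

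The standards divided the second cohort in the same way in groups outside the comparison. Polyps on 0 mg FA (0P) lay between 38.6 and 42.5% at Sla341_2. Epithelium on 8 mg FA (8ND) lay between 15.1 and 27.0% in 5 libraries, and at 41.8% in the library of mouse 1856, which the labels name in the form used for polyps. At all 5 standards without overlap this 8ND library lay nearer to the mean of 8P than to that of 0ND, and at 3 of them inside the range of 8P. Among the standards that differed with overlap it lay within 8P at Sla374_3. At T353_2 it had 46.7%, within the 44.9 to 49.5% of 0ND and above the 40.8 to 46.3% of 8P. Its number of sites with at least 20 reads was 48630, whereas the remaining 8ND libraries had 15893 to 21585. Tissue and this difference between kinds of library cannot be told apart between 8P and 0ND, since at the 5 standards every library of 8P stood on one side and every library of 0ND on the other. Values of the 8ND library of mouse 1856, labelled as epithelium but lying nearer to 8P at these 5 standards, are given beside the results below. Whether its label is right was not tested, so that every 8ND value that includes it rests on the label alone.

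Most sites that passed the test were lower in 8P. In limma, 407 of the 13195 sites (3.08%) passed a BH adjusted p of 0.05 over all tested sites, 358 of them lower in 8P (2.71% of those tested) and 49 higher (0.371%). The share of lower sites was 88.0% (95% Wilson interval 84.4 to 90.8, which covers counting error only and takes neighboring sites as independent). At the lower sites the median level was 82.8% in 0ND and 53.3% in 8P, and the median difference was -23.2 points, with a range from -85.3 to -3.85. At the higher sites the median level was 8.78% in 0ND and 29.8% in 8P, and the median difference was 17.2 points, with a range from 0.62 to 86.9. The difference exceeded 5 points at 354 of the 358 lower and at 44 of the 49 higher sites, and 20 points at 234 and 13. Over all tested sites, called or not, 4083 (30.9%) were lower and 6657 higher in 8P. Their median difference was 0.01 points, since most of these sites had almost no methylation in either group.

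**Figure D2:**
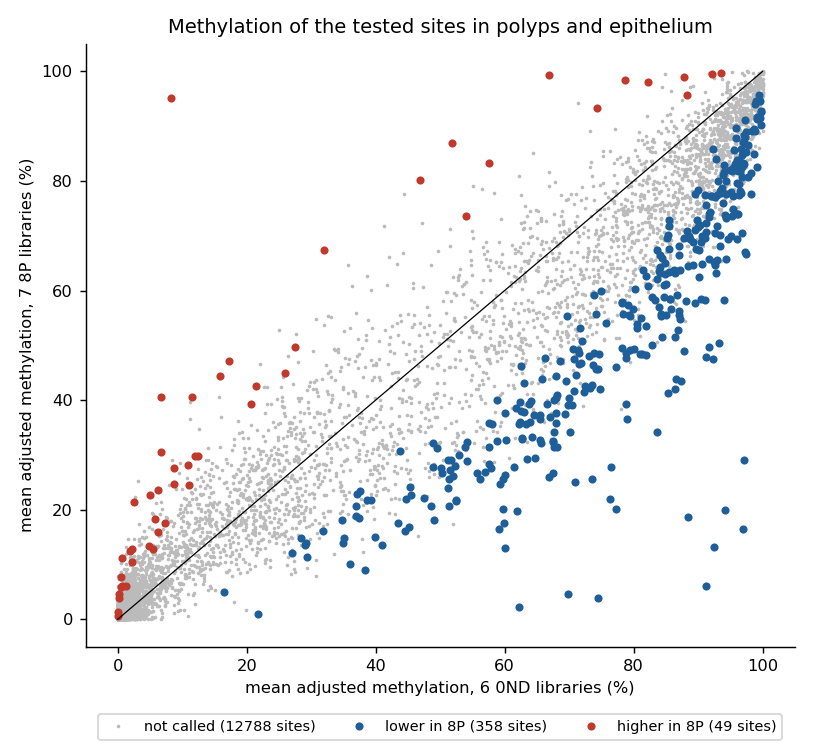
Mean adjusted methylation of each tested site in the 6 libraries of 0ND (x axis, %) and the 7 libraries of 8P (y axis, %), with the line of equal levels. The 358 sites called lower in 8P lie mostly at high levels in 0ND, and the 49 sites called higher lie mostly at low levels.

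The number of called sites depended on single libraries, and its direction did not. Without the lesion of mouse 1800 253 sites were called, without that of mouse 1848 260, and without the 0ND library of mouse 1809 236, each less than the main count divided by 1.5. Without the 0ND libraries of mice 1805, 1808 and 1820, whose 100 most-read sites took more than 8% of all reads, 133 sites were called, of which 90.2% were lower. After subtraction of each library's mean over the tested sites, 9340 sites were called and 9.54% of them were lower, a setting that moves the many sites near 0% by a fixed amount in each library. Among the 1310 of these with a difference above 5 points, a limit added after the data were seen, 67.9% were lower.

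At most called sites most single lesions lay outside the range of 0ND. The sites were called on these same libraries, which favors such counts, and the share of all tested sites with at least 5 lesions outside was not taken. At 349 of the 358 lower sites at least 5 of the 7 lesions lay below all 6 libraries of 0ND, and at 209 sites all 7 did. At 47 of the 49 higher sites at least 5 lesions lay above all of 0ND, and at 30 all 7 did. The groups did not overlap at 284 of all 13195 sites (2.15%), of which 239 were called. The mean over the 358 lower sites ran from 46.9% in the lesion of mouse 1800 to 56.3% in that of mouse 1830, and from 74.8 to 78.4% in the 6 libraries of 0ND. The lesions of mice 1800 and 1830 were outside the range of 0ND at 352 and 310 of the 358 sites. Both lesions of mouse 1856 differed from each other by a mean of 3.48 points per tested site, within the 2.70 to 3.89 points between lesions of different mice.

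The change depended on the level a site has in non-dysplastic epithelium on 2 mg FA. Sites were divided by their mean level in the 7 libraries of epithelium on 2 mg FA of the first cohort (2ND), which take no part in the comparison. The paper describes 2ND as epithelium of mice that also received AOM and DSS, so these are not levels of untreated colon. In sites with 75% or more in 2ND (1409 sites) the mean was 82.8% ± 2.06 (SD, n = 7) in 8P and 90.2% ± 0.729 (SD, n = 6) in 0ND, a difference of -7.45 points (two-sided exact permutation p = 0.000583, BH adjusted 0.00155 over the 8 classes of site tested). In sites with 25 to under 75% (1443 sites) it was 44.9% ± 3.19 (SD, n = 7) and 52.4% ± 2.47 (SD, n = 6), a difference of -7.48 points (exact permutation p = 0.00175, adjusted 0.0028). Sites with 5 to under 25% (995 sites) differed by 1.06 points, less than the spread between libraries (exact permutation p = 0.355). Of the 358 lower sites, 187 lay among the 1443 sites of the class from 25 to under 75% and 161 among the 1409 of the class of 75% or more, where 13.9 and 11.9% of the sites were called in either direction.

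At sites with almost no methylation the difference had the opposite sign and was small. The 9331 sites under 5% in 2ND had a mean of 0.527% ± 0.053 (SD, n = 7) in 8P and of 0.285% ± 0.0464 (SD, n = 6) in 0ND, a difference of 0.24 points (exact permutation p = 0.000583, adjusted 0.00155), while the median over these sites differed by 0 points (exact permutation p = 1). The spiked standard La168_1, also of low level, was at 3.57% in 8P and 3.03% in 0ND (exact permutation p = 0.0286, adjusted 0.0642) and at 4.4% in the 8ND library of mouse 1856, and its part in the class difference was not tested. Of these sites 7 were called, all higher in 8P. Over the 6162 of them covered in all 25 libraries of the second cohort, the means were 0.389 to 0.545% in 8P, 0.337 to 0.614% in 0P and 0.679% in the 8ND library of mouse 1856, against 0.19 to 0.326% in 0ND and 0.15 to 0.279% in the other 8ND libraries. The library of mouse 1856 was thus above all 13 polyp libraries and above all other epithelium. In the class of 75% or more it had 85.9%, between 79.2 to 85.6% in 8P and 87.5 to 90.4% in the other 8ND libraries. In the class from 25 to under 75% it had 50.1%, above the 38.4 to 48.2% of 8P and within the 44.0 to 52.7% of the other 8ND libraries.

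**Figure D3:**
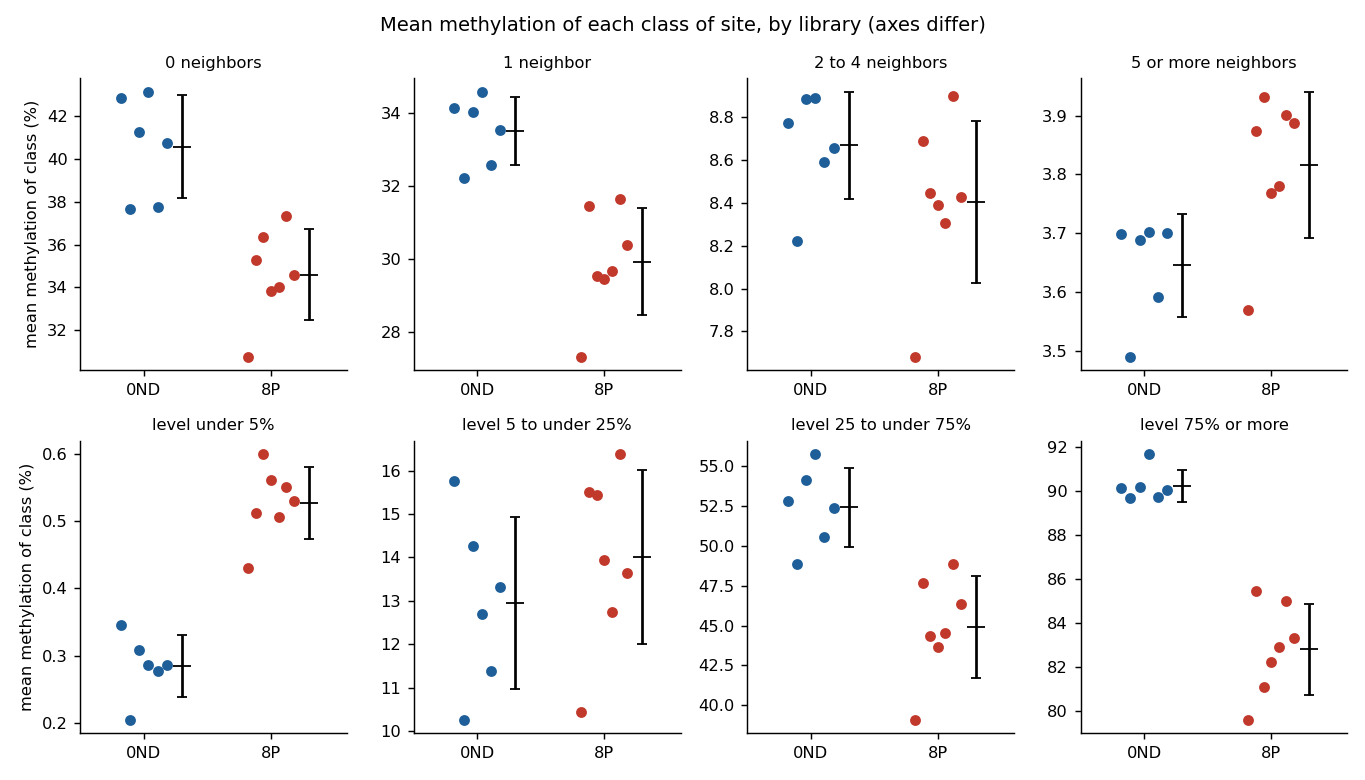
Mean adjusted methylation (y axis, %; the axes differ and do not start at 0) of the tested sites of each class in each library of 0ND and 8P, with the mean and SD of the group as bars. The upper row divides sites by the number of other listed sites within 1 kb and the lower row by their level in first-cohort epithelium on 2 mg FA. The 7 lesions lie below all 6 libraries of 0ND among sites of 75% or more, and above them among sites under 5%.

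Mean methylation was lower in 8P at the sparser of the tested sites. The number of other listed CCCGGG sites within 1 kb was used as a measure of CpG density. Of all listed sites 63.8% have no such neighbor, against 0.515% of the tested sites, so that isolated sites are almost absent from the test. At the 68 tested sites with no such neighbor the mean was 34.6% ± 2.11 (SD, n = 7) in 8P and 40.6% ± 2.39 (SD, n = 6) in 0ND (difference -5.97 points, exact permutation p = 0.000583, adjusted 0.00155). At the 4477 sites with 1 neighbor it was 29.9% ± 1.46 and 33.5% ± 0.937 (difference -3.59 points, exact permutation p = 0.00117, adjusted 0.00233), but the median over these sites differed by 0.89 points in the other direction (adjusted exact permutation p = 0.664). Sites with 2 to 4 neighbors (6852) differed by -0.26 points (exact permutation p = 0.174) and sites with 5 or more (1798) by 0.17 points (exact permutation p = 0.0192, adjusted 0.0256), and the latter sign turned in the raw percentages (-0.02 points). That call was also lost without the lesion of mouse 1830, 1841 or 1858, the second lesion of mouse 1856 or the 0ND library of mouse 1807 (adjusted exact permutation p of 0.0519 or 0.0522). Of the 358 lower sites 281 had exactly 1 neighbor (78.5%), as had 33.9% of all tested sites. Of the 49 higher sites 22 had 1 neighbor and 23 had 2 to 4, a class that holds 51.9% of all tested sites. Within the class of 75% or more in 2ND, 13.7% of the sites with 1 neighbor were lower, 6.35% of those with 2 to 4 and 2.13% of the 47 with 5 or more. Within the class from 25 to under 75% these shares were 14.5, 9.84 and 2.86%.

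The surroundings of lower sites were mostly lower as well, and those of higher sites were mostly higher by small amounts. A second tested site lay within 1 kb of 303 of the 358 lower sites, at a median distance of 173 bases, and the nearest was lower in 8P at 283 of the 303 (93.4%), with a median difference of -12.0 points against -22.8 points at the called sites themselves. Among the tested sites within 1 kb of a lower site that were not called themselves, 215 of 238 were lower, with a median difference of -8.66 points. These uncalled sites had a median level of 83.8% in 2ND, and the median difference over all 1409 tested sites of 75% or more in 2ND was -5.93 points. The share of lower sites among tested sites of like level was not taken. Neighbors this close can also be ends of the same DNA fragments. Of the 49 higher sites 48 had a tested neighbor within 1 kb, at a median distance of 142 bases, and none of these nearest neighbors was called. Of the 48, 34 (70.8%) were higher in 8P. Their median difference was 1.80 points against 16.6 points at the called sites, and 28 of the 48 differed by less than 5 points in either direction. Among the tested sites within 1 kb of a higher site that were not called, 43 of 63 were higher, with a median difference of 2.03 points, whereas 6657 of all 13195 tested sites were higher. Among the 6 higher sites with differences above 30 points, the nearest tested site was lower in 8P at 4.

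Called sites at most 1 kb apart formed 40 pairs with 80 sites (19.7% of the called sites), and no longer runs. In each of the 40 pairs both sites were lower in 8P. CCCGGG sites this close can be the ends of the same DNA fragments, so that the sites of a pair are not independent. At most 200 bases separated the sites in 32 of the pairs. With gaps of up to 10 kb there were 41 runs, of which 1 held sites of both directions.

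The pair with the largest mean difference was SmaI_mm9_109944 and SmaI_mm9_109945 on mm9 (chr11:98973487-98973678). At the first, 8P ranged from 16.5 to 55.1% (median 24.3) and 0ND from 69.2 to 84.1% (median 75.1), and at the second 8P ranged from 22.0 to 67.5% (median 27.96) and 0ND from 77.5 to 89.8% (median 84.3). The lesion of mouse 1830 was the highest of 8P at both, and no library of 8P reached 0ND. The differences were -48.7 ± 5.60 points (SE) and -49.5 ± 6.48 points (SE), with limma adjusted p-values of 0.00106 and 0.0021.

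In the pair on chromosome 4 (chr4:139078086-139078272) SmaI_mm9_42592 ranged from 11.7 to 31.5% in 8P (median 21.0) and from 45.2 to 69.9% in 0ND (median 64.7). SmaI_mm9_42593 ranged from 15.4 to 34.3% (median 27.6) and from 35.7 to 100% (median 74.3). The groups were separate at both sites, although the 0ND library of mouse 1805 came near the polyps at the second. On chromosome 6 (chr6:50328253-50328454) SmaI_mm9_58917 ranged from 9.42 to 24.8% in 8P (median 14.7) and from 30.8 to 79.0% in 0ND (median 64.4). SmaI_mm9_58918 ranged from 7.93 to 36.6% (median 14.5) and from 34.2 to 81.7% (median 61.4), with the lesion of mouse 1841 inside the range of 0ND.

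The pair on chromosome 7 (chr7:105335197-105335416) had 14.0 to 42.8% in 8P (median 25.8) and 55.6 to 80.9% in 0ND (median 68.1) at SmaI_mm9_72454. At SmaI_mm9_72455 it had 19.3 to 35.3% (median 30.6) and 44.2 to 76.5% (median 69.3). The groups did not overlap at either site. On chromosome 1 (chr1:39997732-39997890) SmaI_mm9_2043 had 14.0 to 43.9% in 8P (median 25.0) and 31.4 to 81.0% in 0ND (median 62.4), which overlap, and its call held in 2 of the 13 fits that left out 1 library (limma adjusted p up to 0.0782), those without the lesion of mouse 1830 and without the 0ND library of mouse 1808. SmaI_mm9_2044 had 17.3 to 49.8% (median 32.0) and 61.5 to 79.1% (median 64.3), which do not. Over these 10 sites of 5 pairs the lowest read number of any library ranged from 39 to 171 and the limma adjusted p from 0.000473 to 0.0327. The 8ND library of mouse 1856 lay outside the range of the other 8ND libraries on the side of 8P at 1 of the 10, and was nearer to the mean of 8P than to that of 0ND at 9. The first-cohort library of the same mouse was nearer to 8P at 4.

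The 10 lower sites with the largest differences among those without overlap of the groups were called singly, not in pairs. SmaI_mm9_60619, SmaI_mm9_85467, SmaI_mm9_100890, SmaI_mm9_102357, SmaI_mm9_164092 and SmaI_mm9_172521 had no other tested site within 1 kb and could not form a pair here. SmaI_mm9_120737 (chr13:10491370) ranged from 3.54 to 9.32% in 8P (median 5.34) and from 65.0 to 100% in 0ND (median 95.5), a difference of -85.3 ± 4.99 points (SE, limma adjusted p = 5.21e-06). SmaI_mm9_60619 (chr6:81825107) ranged from 13.3 to 31.8% in 8P (median 17.7) and from 89.0 to 100% in 0ND (median 93.3), a difference of -74.2 ± 3.81 points (SE, limma adjusted p = 1.78e-06). At the first site the 0ND library of mouse 1805 was the lowest of its group, and at the second the lesions of mice 1841 and 1858 were the highest of theirs. SmaI_mm9_164092 (chr19:50006817) ranged from 3.80 to 72.2% in 8P (median 6.83) and from 90.6 to 100% in 0ND (median 97.4). SmaI_mm9_172521 (chrX:149477971) ranged from 4.17 to 39.8% in 8P (median 8.35) and from 75.1 to 100% in 0ND (median 95.8). The lesion of mouse 1830 was the highest at both, far above the other 6.

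Among the remaining lower sites of this list, SmaI_mm9_85467 (chr9:6552973) had 0.93 to 9.79% in 8P (median 2.88) and 57.1 to 92.9% in 0ND (median 72.2). At SmaI_mm9_70558 (chr7:74614558) values ran from 0 to 38.2% in 8P (median 18.7) and from 83.7 to 100% in 0ND (median 86.8). SmaI_mm9_69149 (chr7:52586304) had 10.7 to 70.4% in 8P (median 21.3) and 92.8 to 100% in 0ND (median 97.3). Again the lesion of mouse 1830 was the highest of 8P at the last of these. SmaI_mm9_100890 (chr10:109953527) had 0.47 to 14.1% in 8P (median 3.55) and 46.4 to 87.2% in 0ND (median 75.7). At SmaI_mm9_102357 (chr10:129323428) the lesions lay between 0 and 5.24% (median 1.92) and 0ND between 29.1 and 90.5% (median 64.8). At SmaI_mm9_87895 (chr9:45321276) they lay between 4.28 and 45.0% (median 7.06) and between 53.8 and 100% (median 75.3). Both sites on chromosome 10 had a wider range in 0ND than in 8P. The lowest read number of any library at the 10 sites ranged from 20 to 55.

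At most of these sites the 8ND library of mouse 1856 lay near the polyps. It had at least 20 reads at 8 of them, where it lay between 0 and 41.2%, in all 8 nearer to the mean of 8P than to that of 0ND and at 7 below every other 8ND library with 20 reads. At SmaI_mm9_70558 its 41.2% lay above all lesions and within the 36.0 to 100% of the other 8ND libraries. At SmaI_mm9_120737 it had 11.3%, against 91.5 to 100% in the other 8ND libraries, 0 to 7.57% in 0P and 82.1 to 96.2% in the 18 libraries of first-cohort epithelium. Mouse 1856 also gave a library of non-dysplastic epithelium to the first cohort. In that library the 8 sites lay between 47.6 and 93.5%, nearer to the mean of 8P at 1 of them, and SmaI_mm9_120737 was at 84.7%. Neither library of this mouse takes part in the comparison of 8P with 0ND.

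**Figure D4:**
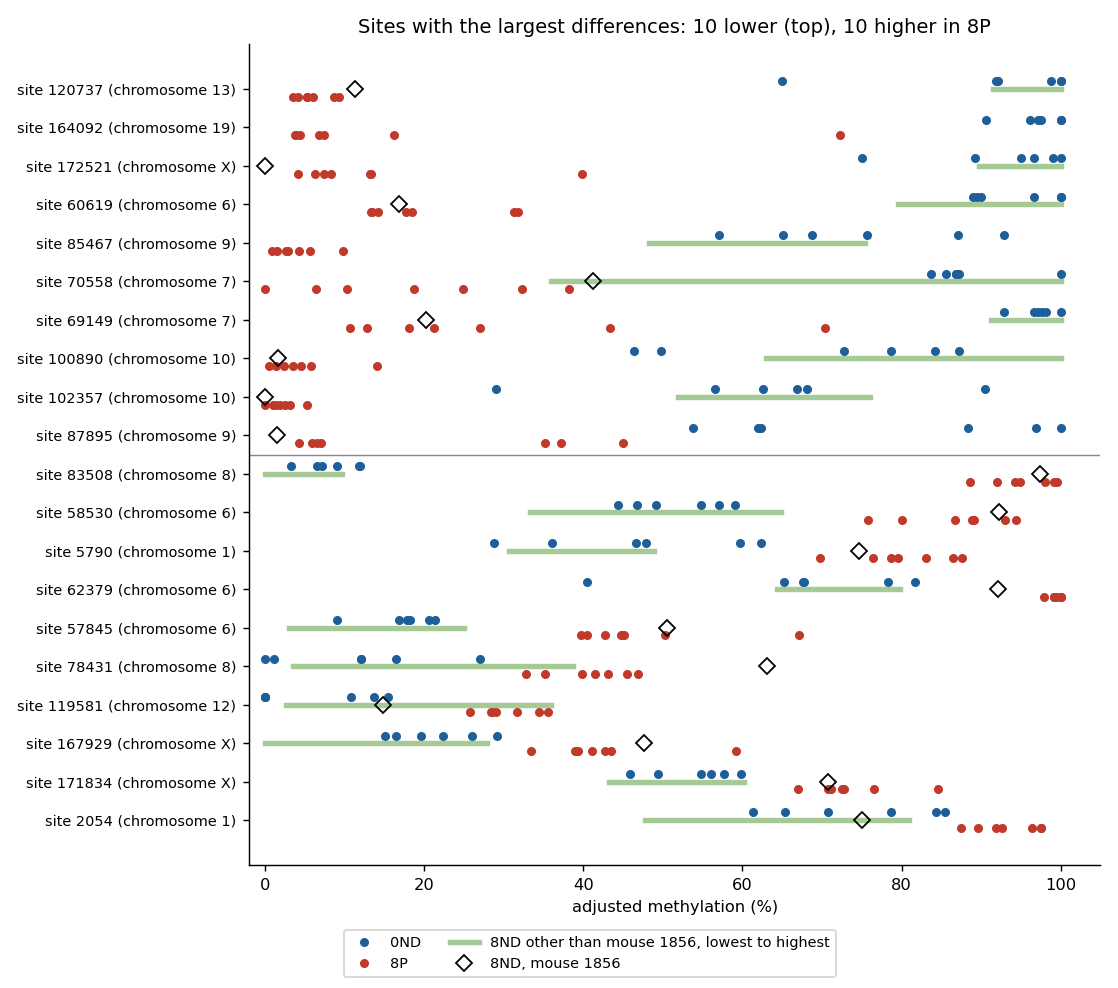
Adjusted methylation (x axis, %) of the 10 lower and 10 higher sites with the largest differences (y axis, named by site number and chromosome). Points are libraries of 0ND (blue) and 8P (red), green bars span the 8ND libraries other than that of mouse 1856, and open diamonds give the 8ND library of mouse 1856 where it had 20 reads. The diamonds lie with the red points at most sites, as at SmaI_mm9_83508 with 97.4%, while the green bars lie with the blue points.

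The largest gain among sites without overlap was at SmaI_mm9_83508 (chr8:117229497), which ranged from 88.6 to 99.5% in 8P (median 94.8) and from 3.29 to 11.9% in 0ND (median 8.13), a difference of 86.9 ± 2.10 points (SE, limma adjusted p = 5.68e-10). Its nearest tested site, 193 bases away, was lower in 8P, at 53.3% against 64.5%. SmaI_mm9_58530 (chr6:42958589) ranged from 75.8 to 94.4% in 8P (median 88.8) and from 44.4 to 59.1% in 0ND (median 52.0). SmaI_mm9_5790 (chr1:103395901) ranged from 69.7 to 87.5% in 8P (median 79.6) and from 28.8 to 62.4% in 0ND (median 47.3). SmaI_mm9_62379 (chr6:108700282) had 97.9 to 100% in 8P (median 99.3) and 40.5 to 81.7% in 0ND (median 67.7). The nearest tested sites of all these 3 were lower in 8P as well, with differences of -5.93, -11.3 and -12.4 points.

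Of the next higher sites, SmaI_mm9_57845 (chr6:32347115) had 39.7 to 67.1% in 8P (median 44.7) and 9.08 to 21.4% in 0ND (median 18.0). SmaI_mm9_78431 (chr8:39723724) had 32.8 to 46.8% in 8P (median 41.4) and 0 to 27.0% in 0ND (median 12.1). The neighbors of both were almost free of methylation in 0ND, at 0.522 and 0.318%. SmaI_mm9_119581 (chr12:111427023) had 25.8 to 35.6% in 8P (median 29.0) and 0 to 15.4% in 0ND (median 5.38). SmaI_mm9_2054 (chr1:40112418) had 87.5 to 97.6% in 8P (median 92.7) and 61.4 to 85.5% in 0ND (median 74.7), and it lost its call when the lesion of mouse 1841 or of mouse 1856 or the 0ND library of mouse 1808 or 1820 was left out (limma adjusted p from 0.0547 to 0.058). On the X chromosome, of which female cells carry an active and an inactive copy, SmaI_mm9_167929 (chrX:58152036) had 33.5 to 59.2% in 8P (median 41.1) and 15.0 to 29.2% in 0ND (median 21.0). SmaI_mm9_171834 (chrX:136597418) had 67.0 to 84.6% in 8P (median 72.6) and 45.9 to 59.9% in 0ND (median 55.4). The limma adjusted p of the 10 sites ranged from 5.68e-10 to 0.0267. Without the 0ND libraries of mice 1805, 1808 and 1820, SmaI_mm9_5790, SmaI_mm9_57845, SmaI_mm9_167929, SmaI_mm9_171834 and SmaI_mm9_2054 lost their calls (limma adjusted p from 0.0522 to 0.158), with differences of 18.2 to 28.5 points. In a quasi-binomial logistic model SmaI_mm9_78431, SmaI_mm9_171834 and SmaI_mm9_2054 did.

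The 8ND library of mouse 1856 went with the polyps at the higher sites too. It lay nearer to the mean of 8P at 8 of the 10, each time above all other 8ND libraries with 20 reads, and its first-cohort counterpart at 1. At SmaI_mm9_83508 it had 97.4%, against 0 to 9.71% in the other 8ND libraries and 3.95% in the first-cohort library of the same mouse. Over all 49 higher sites the median level was 8.78% in 0ND, 10.9% in the other 8ND libraries, 31.5% in the 8ND library of mouse 1856 and 29.8% in 8P. Over the 346 lower sites with the same coverage these medians were 82.5, 72.3, 62.7 and 53.7%.

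Over the called sites as a whole this library was nearer to 8P than the other 8ND libraries were, and most so where the difference was large, a gradient that was not tested. Among lower sites without overlap of 8P and 0ND, the 8ND library of mouse 1856 was nearer to the mean of 8P at 137 of 206 covered sites (66.5%), and the other 5 libraries at 24.3 to 49.7%. For differences above 50 points it was nearer to 8P at 9 of 9 sites and the others at 0 or 1, for 30 to 50 points at 44 of 60, and for 30 points or less at 84 of 137. Among the 30 higher sites without overlap it was nearer to 8P at 23 (76.7%), and the other 5 libraries at 6.67 to 28.6%. In its first-cohort library mouse 1856 was nearer to 8P at 53 of 205 lower and at 7 of 30 higher sites. The part of the library kind in each called site was not tested, because only 1 library of second-cohort epithelium lay nearer to 8P at the 5 standards without overlap.

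At the lower sites 8ND of both cohorts and 2ND had median levels between those of 0ND and 8P. The median of 0P was near that of 8P, and that of first-cohort 0ND near that of second-cohort 0ND. Over the 352 lower sites covered in at least 3 libraries of every group, the median level in the second cohort was 82.5% in 0ND, 69.8% in 8ND, 55.3% in 0P and 54.0% in 8P. In the first cohort it was 81.1% in 0ND, 72.1% in 2ND and 72.4% in 8ND. First-cohort epithelium shares mice but no library with the comparison, and 8ND was below 0ND there at 316 of the 352 sites, with a median difference of -7.12 points, against 41.4% of all sites and a median of 0 points. The 0P and 8ND groups of the second cohort share mice but no library with the comparison. Between them 0P was lower at 307 of the 352 sites, with a median of -12.8 points, against 30.7% of all sites. They differ in tissue as 8P and 0ND do, and also at standard Sla341_2, where only the 8ND library of mouse 1856 lay with 0P. Of all tested sites, however, 70.7% had under 5% in 2ND and thus little methylation to lose. The shares over sites with levels like those of the lower sites were not taken. Between both kinds of polyps the median difference was -1.09 points, with 8P lower at 193 of the 352 sites, a comparison that shares the 8P libraries.

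At the 49 higher sites the medians in the second cohort were 8.78% in 0ND, 14.5% in 8ND (10.9% without the library of mouse 1856), 21.2% in 0P and 29.8% in 8P. In the first cohort they were 15.6% in 0ND, 19.6% in 2ND and 15.6% in 8ND. First-cohort 8ND was below 0ND at 29 of the 49 sites, with a median difference of -1.72 points. Library means were also taken over the called sites covered in all 25 libraries of the second cohort. Over 208 lower sites they were 74.1 to 78.4% in 0ND, 59.5 to 72.8% in 8ND, 43.9 to 62.4% in 0P and 46.5 to 56.4% in 8P. Over 27 higher sites they were 25.8 to 30.0% in 0ND, 21.7 to 41.5% in 8ND, 34.9 to 41.7% in 0P and 39.0 to 42.6% in 8P, and the highest 8ND value was that of mouse 1856, without which 8ND lay between 21.7 and 29.9%.

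**Figure D5:**
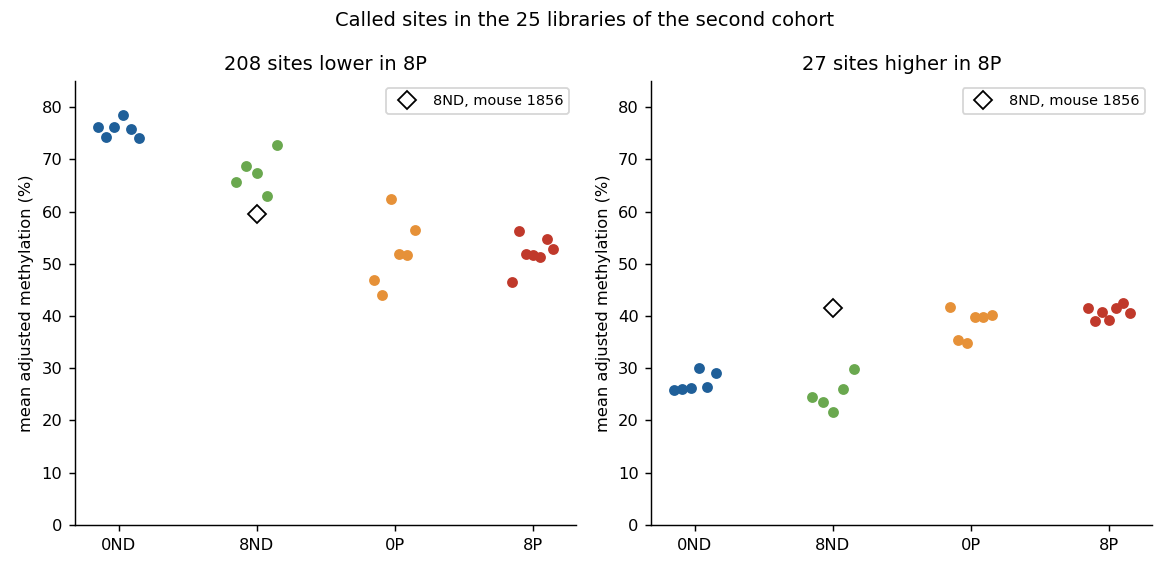
Mean adjusted methylation (y axis, %) over the 208 lower and the 27 higher sites covered in all 25 libraries of the second cohort, 1 point per library. At the lower sites 5 of the 6 libraries of 8ND lie below 0ND and above all polyps, and at the higher sites the same 5 lie near 0ND and that of mouse 1856 (open diamond) lies with the polyps at 41.5%.

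At the threshold the last called sites were SmaI_mm9_44687 (chr4:155397782), SmaI_mm9_110201 (chr11:101047895) and SmaI_mm9_41499 (chr4:132826788), with limma adjusted p-values of 0.0497 to 0.0499 and differences of -14.6, -17.7 and -20.7 points. The first sites not called were SmaI_mm9_42929 (chr4:140877118), SmaI_mm9_57641 (chr6:29707382) and SmaI_mm9_17804 (chr2:105536468), with limma adjusted p-values of 0.0503 to 0.0508 and differences of -17.8, -9.66 and -16.5 points. The differences on both sides of the threshold are alike in size.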

How the data were processed

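DREAM was run on laser-microdissected colon of 43 libraries, of which 13 are compared here. The authors mapped reads to mouse build mm9 with Bowtie2 and SAMtools, per the labels, and deposited, for each CCCGGG site, a count of reads with the methylated and with the unmethylated end, the percentage these give (raw) and a percentage adjusted to spiked standards. The adjustment multiplies the odds of methylation by 1 factor per library, from 1.16 to 1.52 in 8P and from 1.02 to 1.24 in 0ND. Groups were taken from the labels, and the sites, lists and rules were chosen with earlier results of these data known.

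Adjusted percentages were compared, where each of the 13 libraries had 20 or more reads, with limma 3.58.1 (R 4.3.3, variance trend, two-sided), with Benjamini-Hochberg adjustment over 13195 sites and a threshold of 0.05. Class means and standards were compared by exact permutation of libraries (Python 3.11.15, scipy 1.17.1, numpy 2.4.6, pandas 2.3.3; plots with matplotlib 3.10.9). Named sites are the 10 lower and 10 higher called sites with the largest differences among those without overlap of the groups, the 5 runs with the most called sites (ties by the larger mean difference), and the 3 sites on each side of the threshold. Alternatives were raw percentages, other coverage minimums, centring, thinned reads, count models, other tests, and leaving out libraries. The scripts were tested on simulated data. Both lesions of mouse 1856 were treated as separate libraries, so that p-values measure the spread between libraries. Gene annotation and sequence of mm9 were not used here, so sites are given by position only.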

Additional observations from a re-analysis of the deposited data

Results flagged for a closer look

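In 102 groups of 6 or 7 libraries, 12 held a library far from the rest by Dixon's criterion, where chance gives about 1 in 20. The lesion of mouse 1830 accounts for 5 of them, all on the high side at sites lower in 8P: 72.2% at SmaI_mm9_164092, 39.8% at SmaI_mm9_172521, 14.1% at SmaI_mm9_100890, 55.1% at SmaI_mm9_109944 and 67.5% at SmaI_mm9_109945. The second lesion of mouse 1856 was high at 2 sites that are higher in 8P, with 67.1% at SmaI_mm9_57845 and 59.2% at SmaI_mm9_167929. The 0ND library of mouse 1805 stood apart at 3 sites, with 65.0% at SmaI_mm9_120737, 100% at SmaI_mm9_70558 and 9.08% at SmaI_mm9_57845. The lesion of mouse 1800 was low at SmaI_mm9_62379 with 97.9%. The 0ND library of mouse 1809 was high in the mean of the sites with 75% or more in 2ND, at 91.7%.

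Spiked standards are outside the mouse genome, and at 5 of them 8P and 0ND did not overlap. The differences were -8.18 points at T353_1, -0.73 at T324_1, -0.87 at T324_2, 15.6 at Sla341_2 and 7.67 at Sla374_1.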

How the results depend on the processing

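No paired analysis was possible because 8P and 0ND share no mouse. The count of 407 called sites moved by more than 1.5 times with a minimum of 50 reads (238), without the 0ND libraries of mice 1805, 1808 and 1820 (133), with reads thinned to the lowest depth at each site (213), with the criteria of the study's methods (1269), with limma on log2 count ratios (3768), after centring (9340), after centring with a limit of 5 points, added after seeing the data (1310), and in an exact permutation test per site (0 sites, 1595 with an unadjusted exact p under 0.05, where the smallest adjusted p was 0.0509). The share of lower sites, 88.0% in the report, was 91.4% in raw percentages, 95.3% in log2 count ratios, 96.4% in a quasi-binomial logistic model, 80.5% with the study's criteria, and 9.54% (67.9% above 5 points) after centring. Leaving out 1 library gave 236 to 432 sites and 87.0 to 91.4% lower.

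Class differences turned at sites with 2 to 4 neighbors with a window of 200 bases (0.036 points) and a minimum of 50 reads (0.00035), and in raw percentages at sites with 5 or more neighbors (-0.018) and of 5 to under 25% (-0.22), while 2 to 4 neighbors passed (-0.66). In medians over sites, differences were -6.55 points (0 neighbors, not passing), 0.89 (1 neighbor, turned), and 0 for 5 or more neighbors and under 5%. At 5 or more neighbors the difference was 0.19 (not passing) without those 3 libraries and 0.14 to 0.21 when 1 library was left out, not passing in 5 of 13 such fits. The causes were not tested. The tested sites are 7.61% of those listed. The minimum of 20 reads in every library was met at 22552 sites in 8P and at 13398 in 0ND.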

Other observations

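On the X chromosome 251 sites were tested, of which 9 were lower (3.59%, against 2.71% of all tested sites) and 6 higher in 8P, so that 5.98% were called against 3.08% of all. The mean difference on X was 0.79 points, and on the autosomes it lay between -0.82 points (chromosome 19) and -2.17 points (chromosome 9). The tested sites are unlike in level, with a median in 2ND of 28.6% on X and at most 0.52% on any autosome (chromosome 7). Mouse 1856 gave epithelium to both cohorts, and over the 49 higher sites its mean was 26.9% in the first-cohort library and 41.3% in the second. The other 7 mice with epithelium in both cohorts had 22.4 to 33.4% in the first and 20.5 to 27.5% in the second. Over the lower sites mouse 1856 had 69.0% in the first cohort and 59.7% in the second, where the other 7 mice had 63.6 to 78.3%. Between cohorts mouse 1848 also fell, from 71.4 to 63.6%, and mouse 1858 rose from 59.8 to 73.1%.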
